A study of Mus musculus with 7 samples.

Results

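The cells of the brain make nearly all of the cholesterol they use, and 35 genes that make, sense, move, store and export it were followed here after experimental stroke. Members were chosen by gene name: 19 encode enzymes of cholesterol synthesis, counting Ggps1, which makes geranylgeranyl diphosphate rather than sterol. A further 5 encode the proteins that control that synthesis, and 11 act in cholesterol transport, storage, turnover and efflux or in the control of these. All 35 were among the 23288 features that could be tested. They were covered by 49 probes, each well above background on all 7 arrays. Where a gene had several probes its brightest was used, and Sc4mol is the array's name for Msmo1.

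RNA came from the brains of male mice of the C57BL/6N background and was hybridised, 1 sample to an array, in 1 colour. The first group had 3 arrays from mice lacking Pla2g2e, the gene of a secreted phospholipase A2, taken on day 3 after the middle cerebral artery had been blocked for 60 min. The second had 3 arrays from wild type mice on day 3 after the same procedure, and 1 further array was labelled wild type sham. The sources used here do not give the part of the brain sampled or the deleted exons. The treatment text of the sham sample speaks of occlusion like that of the others. The labels do not name the animals behind the replicates, and the p-values may therefore reflect technical spread only. In whole tissue, fewer cells of a type and less RNA per cell cannot be told apart. Levels are log2 processed signals minus the 75th percentile of the same array, so 1 unit is a doubling, and levels of different genes cannot be compared because each probe has its own response.

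Cholesterol is built from acetyl-CoA through mevalonate, farnesyl diphosphate, squalene and lanosterol. When sterols run low in the endoplasmic reticulum, the escort protein SCAP carries the SREBP transcription factors to the Golgi, where they are cut and released to switch on the synthesis genes, while INSIG proteins hold SCAP back when sterols are plentiful. When sterols are abundant, oxysterols activate the LXR receptors, which raise the efflux transporters. In the adult brain, astrocytes and oligodendrocytes make much of the cholesterol, neurons clear excess by hydroxylating it, and phagocytes that take up myelin debris must store or export its cholesterol.

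The promoters of the synthesis genes shared sequence features that the choice of members did not use. RefSeq windows of 250 bases before to 50 bases after the start (GRCm38.p6) were found for 29 of the 35 genes. No window was found for the synthesis genes Fdps, Fdft1 and Sqle or the transport genes Npc1, Abcg1 and Stard4. The CCAAT box, bound by the factor NF-Y that works beside SREBP, was searched on both strands as CCAAT and was present in 15 of 16 synthesis genes, 4 of 5 control genes and 4 of 8 transport genes, against 41.1% of the 27025 genes in the table. The GGGCGG box of the factor Sp1 was in 14 of 16 synthesis genes, 5 of 5 control genes and 5 of 8 transport genes, against 38.2% of all genes. A sterol regulatory element spelled TCACNCCAC was in 1 of 16 synthesis genes, Hmgcs1, and in 1.44% of all genes, and the CACGTG E-box was in 3 of 16 synthesis, 2 of 5 control and 1 of 8 transport genes, against 8.09% of all genes. An LXR element of the DR4 type was in none of the 29 and in 4 genes of the table. In all, 10 motifs were searched, of which the other 5 were further forms of the sterol element. Spellings outside these were not counted, so a gene without a match may hold another form. The core form of the sterol element (CACCCCAC) overlaps the end of TCACNCCAC and was in 2 of 16 synthesis genes, against 3.30% of all genes. The short form CACCCAC was in 1 of 16, against 9.62% of all genes.

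Windows of 4 synthesis genes and 1 transport gene are printed 5′ to 3′ on the gene's strand, with capitals for the CCAAT box on either strand (CCAAT or ATTGG) and for TCACNCCAC. Hmgcs1, which makes HMG-CoA (chr13:119690101-119690400, plus strand), is shown as the window with the sterol element beside 4 CCAAT boxes. Cyp51, the lanosterol demethylase (chr5:4104648-4104947, minus strand), Sc5d, a sterol desaturase (chr9:42264251-42264550, minus strand), and Hsd17b7, a sterol ketone reductase (chr1:169969156-169969455, minus strand), are shown as synthesis genes among those with the smallest p by genotype, and Ch25h, an oxysterol-forming hydroxylase (chr19:34475099-34475398, minus strand), as a window with neither motif.
Hmgcs1: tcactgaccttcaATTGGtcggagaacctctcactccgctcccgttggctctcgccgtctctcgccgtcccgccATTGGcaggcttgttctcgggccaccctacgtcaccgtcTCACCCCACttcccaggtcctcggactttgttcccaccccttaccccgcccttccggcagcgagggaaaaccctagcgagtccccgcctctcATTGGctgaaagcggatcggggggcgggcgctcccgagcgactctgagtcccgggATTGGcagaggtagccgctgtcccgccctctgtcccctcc
Cyp51: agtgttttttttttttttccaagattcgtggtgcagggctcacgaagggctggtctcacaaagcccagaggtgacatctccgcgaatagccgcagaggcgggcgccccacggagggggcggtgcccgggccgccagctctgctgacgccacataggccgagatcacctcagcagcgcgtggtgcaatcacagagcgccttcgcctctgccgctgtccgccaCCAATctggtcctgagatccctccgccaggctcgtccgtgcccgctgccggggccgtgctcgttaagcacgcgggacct
Sc5d: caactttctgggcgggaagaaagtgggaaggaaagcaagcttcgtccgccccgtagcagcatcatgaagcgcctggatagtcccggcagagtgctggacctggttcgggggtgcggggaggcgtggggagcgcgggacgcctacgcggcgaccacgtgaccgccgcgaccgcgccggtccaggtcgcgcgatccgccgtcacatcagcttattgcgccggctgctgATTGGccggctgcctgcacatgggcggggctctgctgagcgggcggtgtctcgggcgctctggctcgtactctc
Hsd17b7: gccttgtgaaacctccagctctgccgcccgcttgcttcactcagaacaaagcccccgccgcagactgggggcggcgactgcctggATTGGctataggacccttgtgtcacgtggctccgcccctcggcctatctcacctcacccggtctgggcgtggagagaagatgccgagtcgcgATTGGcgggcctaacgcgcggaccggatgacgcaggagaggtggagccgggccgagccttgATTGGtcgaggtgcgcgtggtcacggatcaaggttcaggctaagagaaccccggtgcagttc
Ch25h: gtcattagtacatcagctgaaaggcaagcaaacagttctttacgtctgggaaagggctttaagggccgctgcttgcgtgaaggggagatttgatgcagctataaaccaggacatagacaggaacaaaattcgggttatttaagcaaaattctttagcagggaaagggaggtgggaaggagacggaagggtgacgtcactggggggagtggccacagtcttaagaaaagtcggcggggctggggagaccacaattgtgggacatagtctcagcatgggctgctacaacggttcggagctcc
A match is a stretch of letters and not a measured binding site.

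Some arrays stood apart from their labels, which bears on the results that follow. Pla2g2e itself read -4.44, -5.83 and -4.97 on knockout replicates 1, 2 and 3, against -6.89, -3.68 and -3.36 on the wild type arrays in replicate order, with -4.69 on sham. On this probe, its brightest, levels overlapped between genotypes, and the lowest came from an array labelled wild type. A second probe was well above background on only 3 arrays. It read -7.94, -8.44 and -7.84 in knockout, against -9.0, -6.72 and -6.50 in wild type, and -6.83 on sham. There the knockout arrays lay below sham and wild type replicates 2 and 3, and the lowest was again wild type replicate 1. That array, labelled wild type day 3 replicate 1, correlated across genes at 0.857 to 0.916 with the others, against 0.968 to 0.991 for all other pairs. On it, 8 of 8 markers of phagocytes of injured tissue were lower than on each other array and 7 of 7 neuron markers higher. Their summed linear signal relative to the 75th percentile was 243.1 to 354.4 for phagocytes on the knockout arrays, 18.75, 315.6 and 310.8 on the wild type arrays in replicate order, and 261.6 on sham, so by this list the sham array resembled the injured ones. Other lists placed it differently. The red blood cell sum was 1.185 to 4.87 on the knockout arrays, 0.21, 1.395 and 1.332 on the wild type arrays and 0.21 on sham. For endothelial markers it was 33.16 to 64.57 in knockout, 11.24, 53.76 and 53.56 in wild type and 26.71 on sham. Knockout replicate 2 also differed from its group. It correlated at 0.991 with sham, against 0.977 and 0.97 with knockout replicates 1 and 3. Its neuron sum was 46.94, against 21.91 and 15.46 on those arrays and 48.01 on sham. Its striatal neuron sum was 58.03, against 5.059, 3.408 and 32.29. By red blood cells, at 1.185, it was unlike sham. It was the lowest knockout array in 9 of 11 transport genes, against 46.75% of all features. Whether wild type replicate 1 and sham carry each other's label was not tested and the labels do not settle it, so every value against sham, or with that wild type array, holds only as labelled. The knockout arrays lay on one slide and the other 4 on another, and the effects of slide, scan and genotype cannot be told apart. Results are given with and without wild type replicate 1.

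Knockout day 3 was first set against wild type day 3, to ask what loss of Pla2g2e did to these genes in the injured brain. None of the 35 passed: limma called 0 members at an adjusted p under 0.05, with 0 at an unadjusted p under 0.05, and it called 0 of all 23288 features, or 0%. Of all features 196 had an unadjusted p under 0.05. Of the 19 synthesis genes, 17 had a higher mean in knockout, with a median log2 difference of 0.19. Differences above 0 made up 46.9% of all features, whose median was -0.03. Without wild type replicate 1 the synthesis genes again had 17 of 19 above 0, with a median of 0.30, while 50.3% of all features were above 0. Without knockout replicate 3 it was 12 of 19, with a median of 0.05, and without both arrays, a fit chosen after seeing the data, 13 of 19 with a median of 0.16.

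Sc5d read 0.93, 0.95 and 1.19 on knockout replicates 1, 2 and 3, against 0.91, 0.64 and 0.71 on the wild type arrays, with 0.69 on sham. Values are in replicate order here and below. The genotypes did not overlap, although the lowest knockout and the highest wild type array were close. Its difference was 0.27 ± 0.19 (SE; limma, adjusted p = 0.862), 0.35 ± 0.14 without wild type replicate 1 (adjusted p = 1.0) and 0.19 ± 0.23 without knockout replicate 3. Hsd17b7 read -1.23, -1.21 and -1.08 in knockout, against -1.43, -1.52 and -1.28 in wild type, and -1.33 on sham. This gene was the other one without overlap, at 0.24 ± 0.17 (SE; limma, adjusted p = 0.862), and its second probe differed by 0.36 ± 0.20 (SE) in a fit of all probes. Non-overlap with knockout higher was thus seen in 2 of 19 synthesis genes and in 1.88% of all features, and non-overlap with knockout lower in 0 of 35 members and 2.65% of all features.

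Cyp51, which removes a methyl group from lanosterol, read -2.55, -2.82 and -2.22 in knockout, against -2.63, -3.14 and -2.90 in wild type, and -2.97 on sham. Wild type replicate 1 lay among the knockout arrays and the other 2 wild type arrays below them. The difference was 0.36 ± 0.25 with all arrays (SE; limma, adjusted p = 0.862) and 0.49 ± 0.22 without that array, but 0.21 ± 0.28 without knockout replicate 3. Lss, which closes the sterol rings to make lanosterol, read -1.91, -2.32 and -1.46 in knockout, against -2.23, -2.50 and -2.10 in wild type, and -2.45 on sham. Knockout replicate 2 fell within the wild type values, and the difference was 0.38 ± 0.28 (SE; limma, adjusted p = 0.862), or 0.16 ± 0.28 without knockout replicate 3 and 0.59 without knockout replicate 2. Knockout replicates all lay above wild type replicates 2 and 3 in 8 of 19 synthesis genes, against 6.31% of all features, and in 1 of 5 control genes (Scap) and 0 of 11 transport genes.

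Among the early enzymes, Hmgcs1 read 3.53, 3.39 and 3.60 in knockout, against 3.88, 3.08 and 3.22 in wild type, and 3.33 on sham. Its highest value came from wild type replicate 1 and its 2 lowest from the other wild type arrays. The difference was 0.11 ± 0.27 (SE; limma, adjusted p = 0.888). Without that array it was 0.36 ± 0.14 (SE; limma, unadjusted p = 0.0496, adjusted p = 1.0). Hmgcs1 was then the 1 member under 0.05 before adjustment, against 379 of all 23288 features. Its dim second probe differed by -0.22 ± 0.31 with all arrays. Ebp, a sterol isomerase, read 3.53, 3.24 and 3.37 in knockout, against 2.15, 3.37 and 3.32 in wild type, so its difference of 0.43 ± 0.38 (SE) became 0.03 ± 0.14 without wild type replicate 1.

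The exceptions in direction were Ggps1, which makes geranylgeranyl diphosphate for protein prenylation rather than sterol, and Tm7sf2, a sterol reductase. Ggps1 differed by -0.17 ± 0.19 and Tm7sf2 by -0.26 ± 0.44 (SE). Tm7sf2 read 0.02, 0.28 and 0.96 in knockout, against 1.45, 0.19 and 0.39 in wild type, with its highest value on wild type replicate 1. Without that array the exceptions were Ggps1 and Acat2, the thiolase at the head of the pathway, at -0.19 ± 0.31. With knockout replicate 3 also left out, Acat2 was at -0.47 ± 0.15 (SE; limma, unadjusted p = 0.038). It was the 1 member under 0.05 before adjustment in that fit, against 617 of all 23288 features. Fdft1, squalene synthase, had 2 probes that the array design places far apart on mm9, the brighter at chr14:19364899-19364958 and the dimmer at chr14:63764562-63764621. Wild type replicate 1 was the highest of the 7 arrays on the brighter (0.57) and the lowest on the dimmer (-5.20). The probe of Fdps, farnesyl diphosphate synthase, was placed by the design on chromosome 10, whereas RefSeq lists the gene on chromosome 3, so what that probe measures is uncertain.

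Knockout replicate 3 carried much of the synthesis difference. It was the highest of the knockout arrays in 18 of 19 synthesis genes and 9 of 11 transport genes, against 29.8% of all features, and the highest of all 7 arrays in 14 of 19 synthesis genes, against 16.1% of all features. Sc4mol, a methyl sterol oxidase, read 3.26, 3.34 and 4.10 in knockout, against 3.63, 3.13 and 3.24 in wild type, and 2.92 on sham. Knockout replicate 3 stood above all others and the remaining values overlapped, and the difference of 0.23 ± 0.30 was -0.03 ± 0.27 (SE) without that array. On that array the summed signal of 8 oligodendrocyte markers was 117.1, against 214.6 and 204.4 on knockout replicates 1 and 2, 135.8 to 161.9 on wild type arrays and 192.8 on sham, and the phagocyte sum of 354.4 was the highest of the 7. Between genotypes the oligodendrocyte markers went the way of the synthesis genes: 8 of 8 had a higher mean in knockout, with a median log2 difference of 0.21, or 0.30 when wild type replicate 1 was left out. Against sham, 6 of 8 were lower in knockout (median -0.35) and 8 of 8 in wild type (median -0.57). Also higher in knockout were 8 of 8 phagocyte, 5 of 5 endothelial, 3 of 3 red blood cell and 4 of 6 resident microglia markers. Neuron, striatal neuron and choroid plexus markers were all lower, with medians of -1.19, -1.58 and -0.58. When wild type replicate 1 was left out, 1 of 7 neuron, 2 of 6 striatal neuron and 0 of 4 choroid plexus markers were higher. The medians were then -0.37, -0.08 and -0.64. Without wild type replicate 1, the phagocyte, endothelial, red blood cell and resident microglia lists had 3, 0, 3 and 6 higher. Of 7 astrocyte markers, 1 had a higher mean in knockout, with a median of -0.19, and 2 did without that array. The part of these cell types in the synthesis values was not tested.

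**Figure D1:**
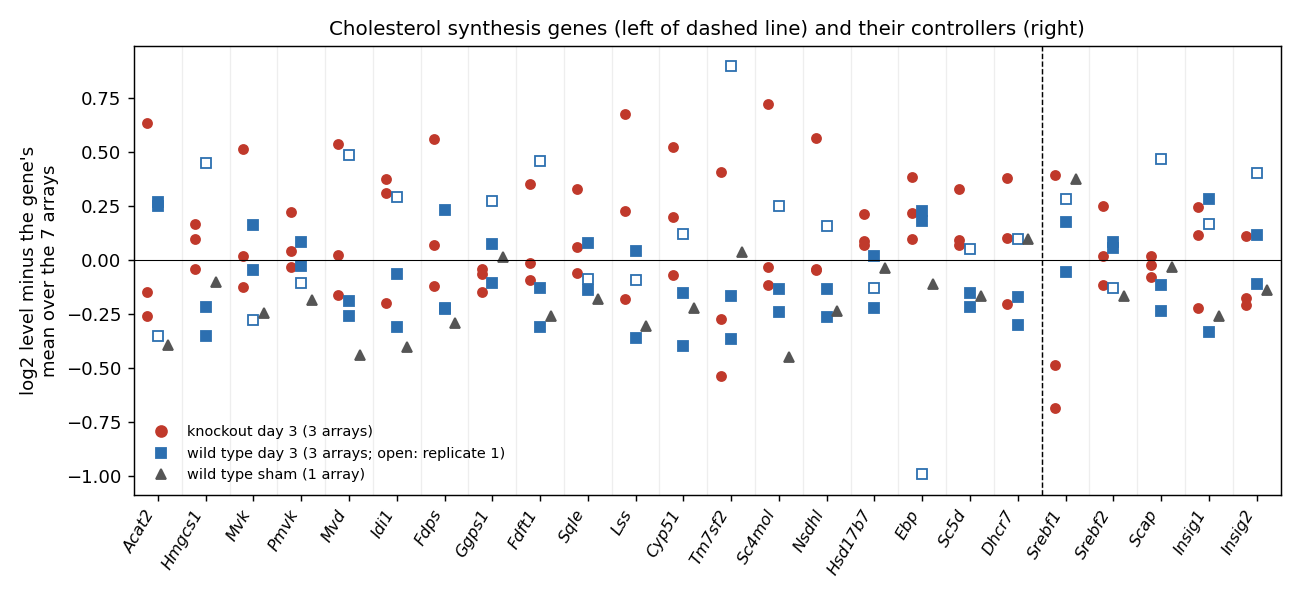
Level of each synthesis and control gene on each array, as log2 level minus the gene's mean over the 7 arrays (vertical axis), by gene (horizontal axis), with knockout day 3 left, wild type day 3 in the middle and sham right. Knockout replicate 3 was the highest of the 7 arrays in 14 of 19 synthesis genes, and the open square is wild type replicate 1.

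The genes that control synthesis did not move together. Of 5, 2 had a higher mean in knockout (Srebf2 and Insig1), with a median log2 difference of -0.07, and 0 passed. Srebf1, which encodes the SREBP-1 factors, read -2.98, -1.89 and -2.78 in knockout, against -2.0, -2.11 and -2.35 in wild type, and -1.91 on sham. Knockout replicate 2 was the highest of the 7 and the other knockout arrays were the lowest. The difference was -0.40 ± 0.33 (SE; limma, adjusted p = 0.862). Srebf2, for SREBP-2, which acts mainly on cholesterol genes, read -1.17, -1.04 and -0.81 in knockout, against -1.19, -1.0 and -0.98 in wild type, and -1.22 on sham. These values overlapped, with a difference of 0.05 ± 0.19 (SE; limma, adjusted p = 0.926), and the second Srebf2 probe read -3.31 on wild type replicate 1 against -1.61 to -0.80 on the other arrays.

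Scap read 2.93, 2.87 and 2.97 in knockout, against 3.42, 2.72 and 2.84 in wild type, and 2.92 on sham. Its difference of -0.07 ± 0.24 (SE; limma, adjusted p = 0.924) was 0.15 ± 0.12 without wild type replicate 1, which was the highest array. Insig1 read -1.64, -2.11 and -1.77 in knockout, against -1.72, -2.22 and -1.60 in wild type, and -2.15 on sham, a difference by genotype of 0.01 ± 0.25 (SE; limma, adjusted p = 0.993). Insig2 read 0.90, 0.93 and 1.22 in knockout, against 1.51, 0.99 and 1.22 in wild type, and 0.97 on sham, at -0.23 ± 0.22 (SE; limma, adjusted p = 0.862). Both overlapped between genotypes.

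The direction of the transport and efflux genes depended on wild type replicate 1. Of 11, 7 had a higher mean in knockout with all arrays, with a median log2 difference of 0.45, and 0 of 11 without that array, with a median of -0.08. It was below each of the other 6 arrays in 8 of 11 transport genes, against 34.4% of all features, and above them in 1, against 43.9%. The same array was below the others in 2 of 19 synthesis genes (Mvk and Ebp), above them in 4 (Hmgcs1, Ggps1, Fdft1 and Tm7sf2), and above them in 2 of 5 control genes (Scap and Insig2). The phagocyte markers moved with these genes on that array, at a summed signal of 18.75 against 243.1 to 354.4 on the other 6. They were not alone: endothelial markers summed to 11.24 against 26.71 to 64.57, and resident microglia markers to 51.04 against 72.14 to 97.12. By contrast, 7 of 7 neuron and 6 of 6 striatal neuron markers were above the other 6 arrays. The part of these cell types in the transport values was not tested.

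Ch25h, which makes an immune-active oxysterol and is induced in activated macrophages, read 2.07, 0.99 and 2.53 in knockout, against -5.05, 2.09 and 1.98 in wild type, and 1.41 on sham. Only wild type replicate 1 was low. The difference was 2.19 ± 2.02 (SE; limma, adjusted p = 0.862), and -0.17 ± 0.48 without that array. Npc2, the lysosomal protein that hands cholesterol to NPC1, read 3.70, 3.43 and 3.88 in knockout, against 1.41, 3.59 and 3.75 in wild type, and 3.57 on sham. Its difference of 0.75 ± 0.66 (SE; limma, adjusted p = 0.862) became -0.01 ± 0.18. Npc1, the lysosomal membrane exporter, read 0.34, -0.11 and 0.57 in knockout, against -1.39, 0.24 and 0.37 in wild type, and 0.23 on sham, at 0.53 ± 0.53 with all arrays and -0.04 ± 0.24 (SE) without that one.

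Cyp46a1, the neuronal hydroxylase by which brain cholesterol is cleared, went the other way. It read -2.84, -2.26 and -3.26 in knockout, against -0.09, -2.52 and -2.93 in wild type, and -2.36 on sham. Wild type replicate 1 alone was high, and 7 of 7 neuron markers were highest on it too. The difference of -0.94 ± 0.80 (SE; limma, adjusted p = 0.862) became -0.06 ± 0.34 without it. Abca1, which exports cholesterol to lipid-poor apolipoproteins, read 1.95, 1.69 and 2.32 in knockout, against -0.29, 2.19 and 2.11 in wild type, and 2.19 on sham. Outside wild type replicate 1 its values overlapped.

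Soat1, which esterifies cholesterol for storage, was -1.77 to -1.13 on the knockout arrays, against -3.69, -1.25 and -1.06 on wild type replicates 1, 2 and 3. Nr1h3, the gene of LXR-alpha, was 0.56 to 0.91 in knockout, against -1.11, 1.08 and 1.01 in wild type, both lowest on wild type replicate 1. Mylip, an LXR-induced ubiquitin ligase, was 0.83 to 1.49 in knockout, against -0.43, 1.17 and 1.15 in wild type. Knockout arrays were all below wild type replicates 2 and 3 in 2 of 11 transport genes, Nr1h3 and Abcg1, against 5.33% of all features. Abcg1, an exporter to lipoprotein particles, read 2.26, 2.58 and 2.59 in knockout, against 2.20, 2.68 and 2.74 in wild type, and 2.69 on sham. Stard4, a cytosolic sterol carrier, read 0.13, -0.51 and 0.32 in knockout, against 0.07, -0.08 and 0.10 in wild type, and -0.21 on sham. Nr1h2, the gene of LXR-beta, read 2.57, 1.96 and 2.53 in knockout, against 2.47, 2.47 and 2.39 in wild type, and 2.24 on sham. In these 3 genes the genotypes overlapped, and wild type replicate 1 lay within 1 unit of every other array.

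**Figure D2:**
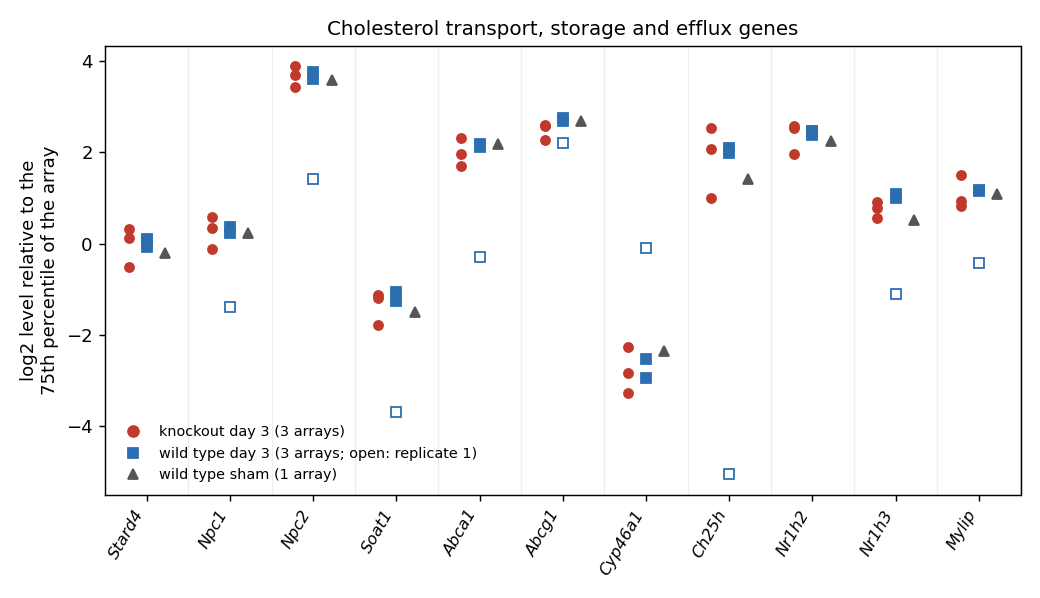
Log2 level relative to the array's 75th percentile (vertical axis) of the 11 transport, storage and efflux genes (horizontal axis), 1 point per array, with knockout day 3 left, wild type day 3 in the middle and sham right. The open square, wild type replicate 1, lies below the other 6 arrays in 8 genes and above them in Cyp46a1.

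**Figure D3:**
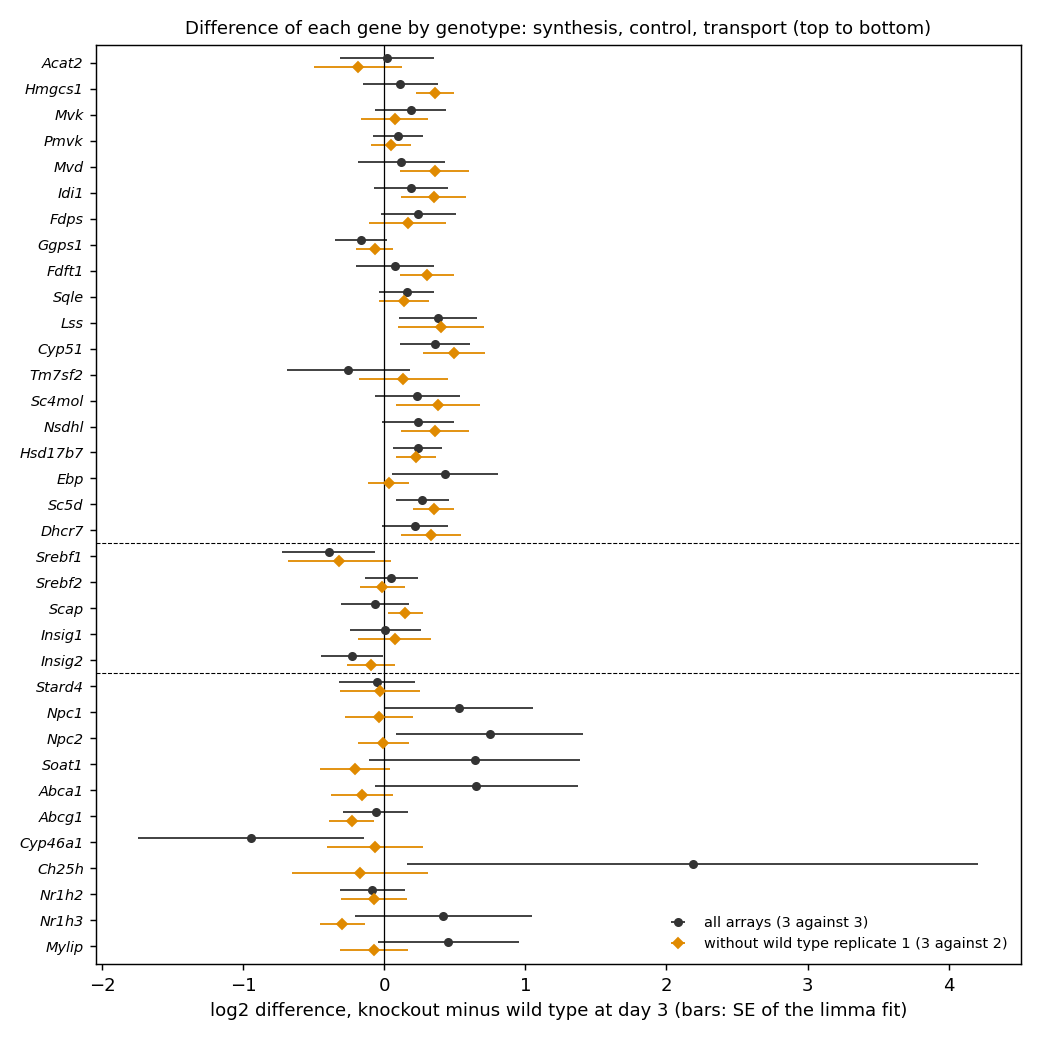
Log2 difference of knockout minus wild type at day 3 (horizontal axis, bars are the SE of the limma fit) for each gene, with all arrays (circles) and without wild type replicate 1 (diamonds). Synthesis genes above the upper dashed line had 17 of 19 differences above 0 in both fits, and transport genes below the lower line had 7 of 11 and 0 of 11.

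Knockout day 3 was set against the 1 array labelled sham, which lacks a spread of its own. No knockout sham array is in the series. Genotype, labelled occlusion and slide all differ between these arrays, and their effects cannot be told apart here. Limma called 0 of 35 members and 3 of all features (0.0129%). Of 19 synthesis genes 16 were higher in knockout, with a median log2 difference of 0.35, against 50.4% of all features. All 3 knockout arrays lay above sham in those 16 genes, against 28.5% of all features, and in 2 of 5 control genes (Srebf2 and Insig1) and 1 of 11 transport genes (Nr1h3). They all lay below sham in 1 synthesis gene (Ggps1) and 1 transport gene (Abcg1), against 25.8% of all features. Another Ggps1 probe went the other way, at -1.15, -1.15 and -1.11 in knockout against -1.50 on sham. On 1 more Ggps1 probe the knockout arrays lay on both sides of sham. Of the 13 members with several probes, 9 had all probes of the same sign in this comparison.

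Sc4mol was 0.64 ± 0.43 above sham (SE; limma, adjusted p = 1.0). Idi1, the isomerase that makes dimethylallyl diphosphate, read 1.61, 1.1 and 1.67 in knockout, 1.59, 0.99 and 1.23 in wild type, and 0.89 on sham. Sham was the lowest of the 7, and knockout differed from it by 0.57 ± 0.37 (SE; limma, adjusted p = 1.0). Mvd, the mevalonate diphosphate decarboxylase, read -1.19, -1.37 and -0.67 in knockout, -0.72, -1.47 and -1.40 in wild type, and -1.65 on sham, again the lowest. It differed by 0.57 ± 0.44 and Lss by 0.55 ± 0.39 (SE). Sham was the lowest of the 7 arrays in 7 of 19 synthesis genes, against 10.4% of all features. Of the control genes, Srebf1 differed from sham by -0.64 ± 0.47, Insig1 by 0.31 ± 0.36 and Srebf2 by 0.22 ± 0.27 (SE), while Insig2 and Scap differed by 0.05 ± 0.31 and 0.0048 ± 0.34. The 11 transport genes had a median of 0.10 with 8 higher. Abcg1 differed by -0.21 ± 0.33, Stard4 by 0.19 ± 0.38, Cyp46a1 by -0.43 ± 1.13 and Nr1h2 by 0.11 ± 0.32 (SE). Limma's adjusted p was 1.0 for every member. Wild type replicate 1 has no part in these differences, but it enters the shared spread behind their SE and adjusted p. Without it the SE was 0.43 for Cyp46a1, 0.20 for Abcg1, 0.36 for Stard4 and 0.295 for Nr1h2. Knockout replicate 3 does have a part in the differences: without it the synthesis median was 0.19, again with 16 of 19 higher. Sc4mol was then at 0.38 ± 0.36, Lss at 0.33 ± 0.37, Mvd at 0.37 ± 0.45 and Idi1 at 0.46 ± 0.43 (SE). Stard4 was at 0.02 ± 0.39, Cyp46a1 at -0.19 ± 1.28, Nr1h2 at 0.02 ± 0.38, Srebf2 at 0.12 ± 0.31 and Insig2 at -0.05 ± 0.36 (SE), and 5 of 11 transport genes were higher.

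Wild type day 3 against sham lies within 1 slide and was designed to ask what the occlusion did in wild type brain. Given the markers on the sham array and on wild type replicate 1, its values are differences between arrays as labelled. It shares the sham array with the comparison before it. Limma called 0 of 35 members and 3 of all features (0.0129%). Of the synthesis genes 16 of 19 were higher at day 3, with a median log2 difference of 0.16, against 54.1% of all features. Without wild type replicate 1 it was 12 of 19, with a median of 0.15, against 50.75% of all features. Control genes had 4 of 5 higher and a median of 0.17, and 3 of 5 and 0.14 without that array. Insig1 differed by 0.30 ± 0.36, Insig2 by 0.28 ± 0.31, Srebf2 by 0.17 ± 0.27, Srebf1 by -0.24 ± 0.47 and Scap by 0.07 ± 0.34 (SE; limma, adjusted p = 1.0 each). Without that array Insig2 was at 0.14 ± 0.23 and Scap at -0.14 ± 0.17 (SE).

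Mvd differed by 0.45 ± 0.44, or 0.21 ± 0.33 when wild type replicate 1 was left out, Sc4mol by 0.41 ± 0.43 and 0.26 ± 0.40, and Idi1 by 0.38 ± 0.37 and 0.22 ± 0.31 (SE). Acat2 read -1.49, -1.60 and -0.70 in knockout, -1.69, -1.09 and -1.07 in wild type, and -1.73 on sham, and wild type differed from sham by 0.45 ± 0.47 (SE; limma, adjusted p = 1.0), or 0.65 ± 0.42 without wild type replicate 1. All wild type arrays lay above the sham value, the first by little. Transport genes had 3 of 11 higher at day 3, with a median of -0.45, against 54.1% of all features. Without wild type replicate 1 they had 9 of 11 higher, with a median of 0.10, against 50.75% of all features. Abca1 differed by -0.85 ± 1.01 with all arrays and by -0.04 ± 0.30 without it, and Npc2 by -0.65 ± 0.94 and 0.10 ± 0.25 (SE). Npc1 likewise differed by -0.49 ± 0.75 and 0.08 ± 0.32, while Stard4 was at 0.24 ± 0.38 and 0.22 ± 0.38 (SE). Nr1h3, at 0.53 on sham, differed by -0.20 ± 0.89 with all arrays. Without wild type replicate 1 it was at 0.52 ± 0.21 (SE), with the smallest p of the transport genes in that fit.

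**Figure D4:**
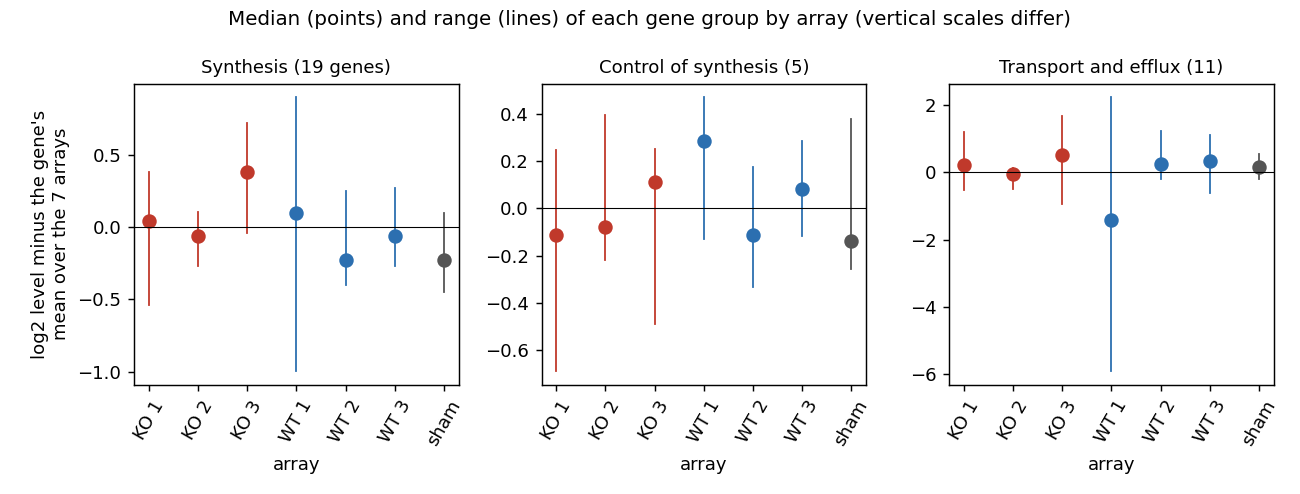
Median (points) and range (lines) of the log2 level minus each gene's mean over the 7 arrays (vertical axis, with its own scale in each panel), by array (horizontal axis), for synthesis, control and transport genes. Synthesis genes had their highest median on knockout replicate 3 (0.38), and transport genes their lowest on wild type replicate 1 (-1.43).

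Other genes of the pathway, listed by role and not by how they moved, gave no call either. Of 9 further sterol and isoprenoid genes, 4 had a higher mean in knockout, with a median log2 difference of -0.04, and 8 without wild type replicate 1, with a median of 0.09. Among 17 further genes of sterol transport and turnover 7 were higher with all arrays and 7 without that array. Of 8 fatty acid genes that SREBP-1 drives, 2 were higher with a median of -0.11, and 7 with a median of 0.14 without that array. Limma called 0 of these 34 genes in this comparison, with 0 at an unadjusted p under 0.05, against 196 of all 23288 features.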

How the data were processed

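The authors deposited the spot intensities that Agilent Feature Extraction wrote (11.5.1.1, per the submitters' processing notes). Per the file headers the processed intensity is background-subtracted and detrended within each array. The deposited value table gives a linear ratio that matched the processed signal over the array's 75th percentile within 0.0428%. From the deposited intensities, log2 values were computed, each array's 75th percentile was subtracted, outlier spots were dropped and spots of a probe were averaged. A probe was kept if well above background on 3 or more of the 7 arrays, and the brightest stood for its gene, leaving 23288 features. Between 31177 and 34029 of 43020 spots per array were well above background and 0 were saturated. Precision is limited by how few arrays there are.

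The 3 groups were fitted with limma 3.58.1 in R 4.3.3 (4 residual and 1.68 prior degrees of freedom), with two-sided tests and p-values adjusted by Benjamini-Hochberg across all features, at 0.05. An exact permutation test of 3 against 3 cannot go below 0.1. The steps were tested on simulated data with independent noise for each gene and array. That test held no outlying array and no slide effect, so it does not cover them. Members, lists and tests were chosen with earlier results of these data known. Values on all arrays are given, per gene group and comparison, for the 4 members with the smallest p; Hmgcs1, Ebp, Tm7sf2 and the remaining transport genes were added after their values were seen. Replicate numbers were not treated as pairs. Deviations from the group means correlated at -0.38, -0.556 and 0.353 between same-number knockout and wild type arrays. With 3 arrays to a group and 1 of them outlying, these values cannot show whether the numbers pair the arrays. Alternatives were normexp background correction, other scalings, filters and probe choices, a replicate block, array weights and leaving out arrays. Promoter windows are RefSeq's (GRCm38.p6).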

Additional observations from a re-analysis of the deposited data

How the results depend on the processing

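No member was called in any comparison under any alternative run, and the synthesis median stayed above 0 in all of them. For knockout against wild type, array weights called 2 features and turned Scap (0.194) and Srebf2 (-0.00329). Leaving out 1 array at a time gave 0 to 2 control genes higher, 0 to 9 transport genes higher, Scap -0.204 to 0.148, Srebf2 -0.049 to 0.134, Npc2 -0.00592 to 1.16, Ch25h -0.174 to 3.4 and Npc1 -0.036 to 0.843. Leaving out wild type replicate 1 and knockout replicate 3 together, chosen after seeing the data, gave a transport median of -0.279 with 1 gene higher, Scap 0.125, Srebf2 -0.115, Cyp46a1 0.172, Npc2 -0.111, Ch25h -0.508 and Npc1 -0.19.

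For knockout against sham, features called were 0 with normexp, quantile, median scaling, the filter on all 7 arrays, the replicate block and both arrays left out, 95 with array weights and 0 to 8 with 1 array left out. The replicate block, with numbers not known to pair the arrays, gave a transport median of -0.488 with 3 higher and Cyp46a1 at 0.424. Leaving out 1 array gave 2 to 4 control genes and 5 to 8 transport genes higher and Insig2 -0.0512 to 0.109; with both left out these were 2, 5 and -0.0512. For wild type day 3 against sham, features called were 1 with median scaling, 0 with normexp, quantile, the filter on all 7 arrays, the replicate block and both arrays left out, 146 with array weights and 0 to 6 with 1 array left out. Srebf2 was -0.277 as the mean of its probes. Transport genes higher were 9 with array weights or both arrays left out and 3 to 9 with 1 left out. Npc2 was 0.0407 and Npc1 0.0284 with array weights, 0.102 and 0.0765 with both left out, and -1.07 to 0.102 and -0.802 to 0.0765 with 1 left out. The array left out at the turning end was wild type replicate 1 for the transport genes of both comparisons with wild type day 3 and for Scap. It was knockout replicate 3 for the control genes, Srebf2, Insig2 and the transport genes against sham. For knockout against wild type, Srebf2 also turned without wild type replicate 1 (-0.0159). In that comparison 1 control gene was higher without knockout replicate 1, and 1 without wild type replicate 2. The cause was not tested.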
